A study of Rattus norvegicus with 30 samples.

Results

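Chondrogenic and adipogenic differentiation were compared directly after 3 h of induction, in 6 of the 30 samples of the series. Bone marrow mesenchymal stem cells (BMSCs), the adherent stromal cells of the marrow that can become cartilage, fat or bone cells, came from the femurs and tibiae of female Sprague Dawley rats 3 weeks old. At passage 2 they were given a commercial chondrogenic medium (CH) or a commercial adipogenic medium (AD), with 3 samples of each at 3 h, and the composition of both media is not given in the sources used here. The same media were sampled at 12 and 72 h, and osteogenic medium (OS) and undifferentiated cells (CON, 0 h) gave the other groups, each of 3 samples. Each sample was pooled from cultures of these cells, and the labels do not say which animal a sample came from, so a p-value measures the spread between pooled cultures only.

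Cells on the chondrogenic path are directed by SOX9, the transcription factor (TF) that turns on cartilage matrix genes, and TGF-beta signalling through SMAD proteins is the usual inducer of that path in culture. The adipogenic path runs through the C/EBP factors to PPARG, the master regulator of fat cells, and glucocorticoid, insulin and cAMP signalling are its usual inducers. Both programs take days to reach their late genes.

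Gene levels are read counts scaled to a common library total (CPM), which are not divided by gene length and were therefore compared between samples only. The 6 samples had 6355230 to 9046719 reads, and 3 reads, the smallest signal taken as detectable, corresponded to 0.332 to 0.472 CPM. This floor covers counting error only. The BMSC markers Thy1, Cd44, Itgb1 and Cd9 were high in all 6 samples (Thy1 5599 to 6276 CPM in CH and 6055 to 6628 CPM in AD), but the defining markers Eng, Pdgfra and Pdgfrb were at 1.77 CPM or less in every sample and Vcam1 was at 0. The 14 BMSC markers summed to 16173 to 17792 CPM in CH and 17503 to 18894 CPM in AD. The 10 markers of blood, macrophage and endothelial cells with a row in the files summed to 2.70 to 4.79 CPM in CH and 5.04 to 7.44 CPM in AD, with Mrc1 and Cd52 at 0 in all 6. Of its 2 tested members, limma called neither (1 at an unadjusted p under 0.05), while edgeR and DESeq2 each called Tek higher in AD (1.35, 1.17 and 1.60 CPM in CH and 2.54, 3.30 and 3.72 CPM in AD). The part of such cells in the results was not tested.

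Of 3307 genes tested, 398 (12.0%) differed between the media at 3 h, with 218 (6.59%) higher in CH and 180 (5.44%) higher in AD. A gene was called at a log2 difference, CH minus AD on the log2(CPM + 1) scale, of at least 1 in size and a limma adjusted p under 0.05. The 3 CH samples lay wholly above or below the 3 AD samples in 216 of the 218 and in all 180, against 1578 (47.7%) of the tested genes. At any size of difference, 1286 genes (38.9%) had an adjusted p under 0.05. The median difference was 0.07 over all tested genes, and the median size was 1.53 for genes higher in CH and 1.41 for genes higher in AD. Of the genes higher in CH, 69 were under 1 CPM in all 3 AD samples, and 64 of those higher in AD were under 1 CPM in all 3 CH samples. These had passed the filter of 1 CPM in at least 3 samples through 1 group alone, which fixed their direction. In all, 105 tested genes were that low in AD and 97 in CH. When that filter was applied again to the 5 samples left after AD replicate 2 was removed, 117 genes were called higher in AD.

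**Figure D1:**
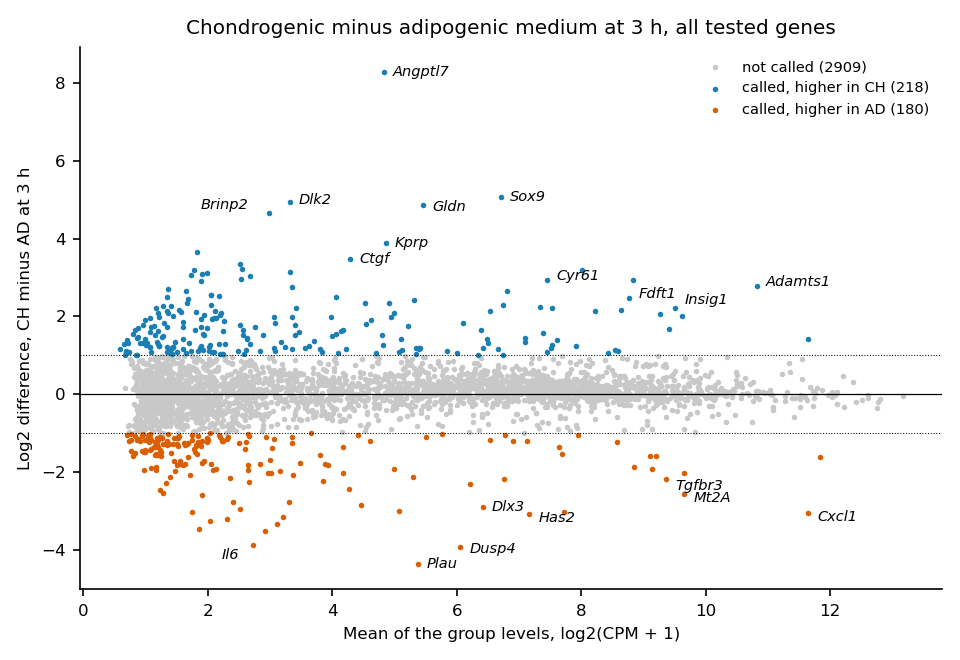
The x axis gives the mean of the CH and AD levels on the log2(CPM + 1) scale and the y axis the log2 difference, CH minus AD at 3 h, for each of the 3307 tested genes (1 point a gene). Blue points are the 218 genes called higher in CH, orange points the 180 called higher in AD, grey points the genes not called, and dotted lines mark a difference of 1. Angptl7 stands alone at the top at 8.29 and Plau lies lowest at -4.37.

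Of 16 tested chondrogenic regulators and cartilage genes, 8 were higher in CH, Sox9 and Scx among them, 1 was lower and 7 were not called, against 6.59% of all tested genes higher and 5.44% lower, with a median difference of 1.23. Angptl7, Sox11, Gbx2 and Fgf18 were under 1 CPM in all 3 AD samples and Foxc1 in all 3 CH samples, so these 5 passed the filter through 1 group alone and their direction was fixed by it. With the filter applied again after any CH replicate was left out, 4 of 11 tested members were higher in CH. The median of those 11 was 0.74 to 0.80, and that of the list with no filter was 0.29. Sox9 stood at 622, 627 and 561 CPM in the CH samples and at 19.01, 17.6 and 14.4 CPM in the AD samples. Every CH sample was therefore far above every AD sample, and the log2 difference was 5.07 (SE 0.095, adjusted p = 1.08e-28). Undifferentiated cells held 48.1 ± 2.38 CPM (SD, n = 3) and osteogenic cells at 3 h 101 ± 2.06 CPM, which placed AD lowest and CH highest of the 4 groups. Angptl7, which encodes a secreted angiopoietin-like protein, was at 490.5, 500.4 and 504 CPM in CH but at 0.442, 0.629 and 0.744 CPM in AD. The AD samples were near the floor, as undifferentiated cells were (0.489 ± 0.245 CPM), and the difference of 8.29 (SE 0.13, adjusted p = 1.15e-30) was the largest of all tested genes. In bulk samples such as these, fewer expressing cells and less RNA per cell cannot be told apart.

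Other developmental TFs of the list also had CH samples wholly above the AD samples. Scx, which encodes scleraxis of tendon and cartilage progenitors, reached 15.4, 15.3 and 14.5 CPM in CH and 1.33, 0.629 and 1.34 CPM in AD. The groups did not overlap, and the difference was 2.96 (SE 0.23, adjusted p = 2.3e-12). Sox11, an HMG-box factor of mesenchymal progenitors, was at 11.5, 10.7 and 7.50 CPM in CH against 0.111, 0.157 and 0.595 CPM in AD, a difference of 3.08 (SE 0.26). Its direction was fixed by the filter, which it had passed through CH alone, so only the size is given. Runx3, a RUNX factor of cartilage maturation, was at 6.74, 6.90 and 7.74 CPM in CH against 1.44, 1.26 and 0.744 CPM in AD, and its difference was 1.93 (SE 0.25, adjusted p = 1.16e-07). Scx and Runx3 were thus above 6 CPM in every CH sample and at or under 1.44 CPM in every AD sample. Fgf18 (2.09), a growth factor for chondrocytes, Gbx2 (1.73) and Hic1 (1.55) were also higher in CH, but Fgf18 and Gbx2 could only be so, having passed the filter through CH alone. Foxc1 was the member higher in AD, with 0.899, 0 and 0.123 CPM in CH and 1.66, 2.36 and 1.78 CPM in AD, and its call was lost (-0.999) without CH replicate 2. It had passed the filter through AD alone. The cartilage matrix genes Col2a1 and Acan were at or near 0 in these files. Col2a1 had no read in any of the 6 samples and Acan was at 0.150 CPM in CH replicate 1, at 0.149 CPM in AD replicate 3 and at 0 in the others. Genes that stromal cells are known to use were also near 0 in all 6 samples, such as Vim (0.149 to 1.35 CPM) and Cd63 (0 to 0.553 CPM), so a value near 0 here cannot be read as low expression.

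**Figure D2:**
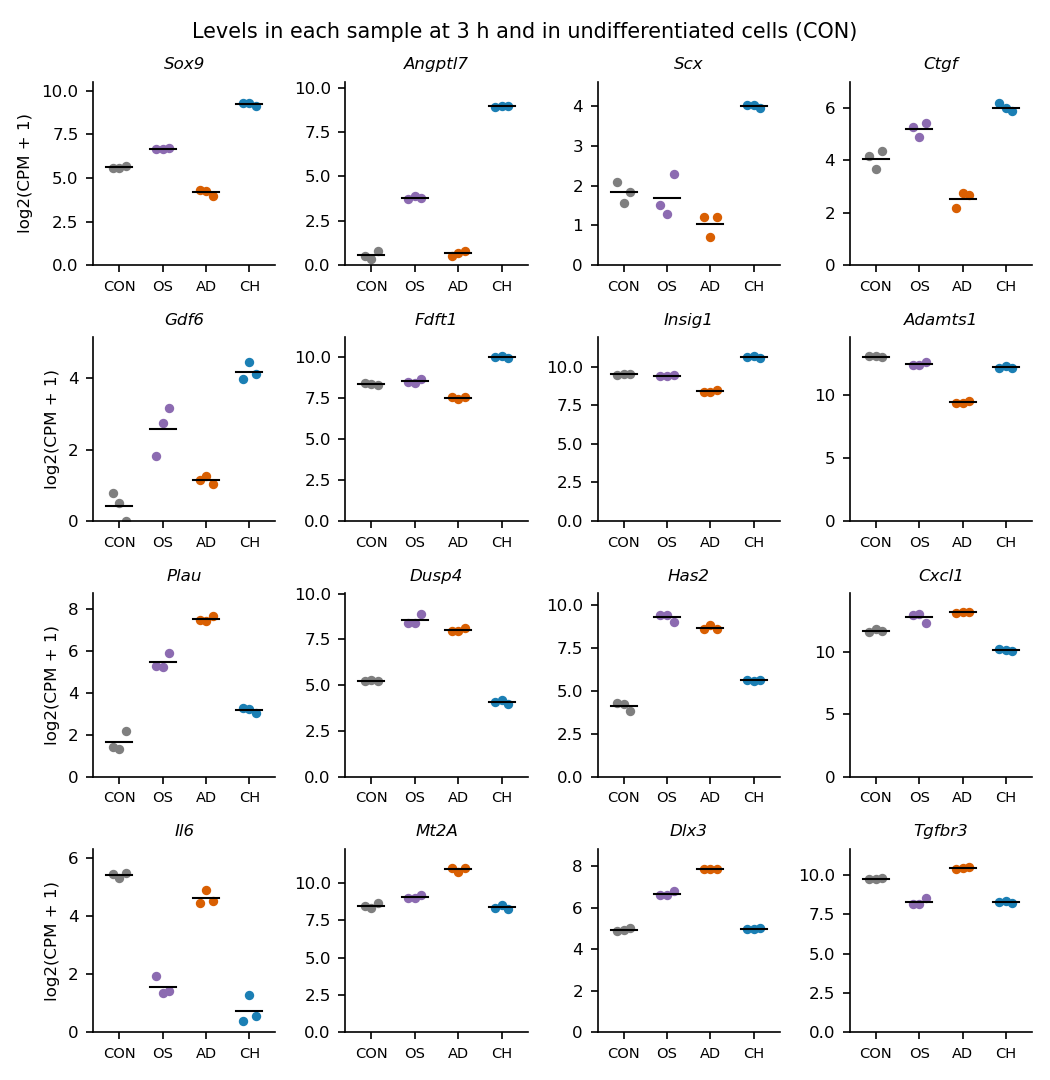
Each panel shows 1 gene, with the level in each sample on the y axis as log2(CPM + 1) and the groups CON (undifferentiated cells), OS, AD and CH (all at 3 h) on the x axis. Points are the 3 samples of a group and black bars their mean. In each of the 16 panels the CH and AD points do not overlap, with CH above AD in the first 8 panels (Sox9 to Adamts1) and below AD in the others (Plau to Tgfbr3).

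Among 21 tested TGF-beta response genes, 11 were higher in CH and 3 lower (66.7% called, against 12.0% of all tested genes), with a median difference of 1.18. Of the 11, Fgf18 had passed the filter through CH alone and could only be higher there, and 10 of 20 tested members were higher when the filter was applied again after any CH replicate was left out. Ctgf (Ccn2), a matricellular protein and a common readout of TGF-beta and YAP activity, was at 71.03, 62.5 and 57.8 CPM in CH and 3.54, 5.66 and 5.35 CPM in AD. The lowest CH sample was well above the highest AD sample, and the difference was 3.48 (SE 0.16, adjusted p = 3.84e-18). Its relative Cyr61 (Ccn1) had 524, 493 and 422 CPM in CH and 69.4, 50.4 and 66.2 CPM in AD, a difference of 2.94 (SE 0.097, adjusted p = 2.98e-22). Undifferentiated cells held 491 ± 31.3 CPM of Cyr61 and osteogenic cells 557 ± 47.5 CPM, so that AD was the group that stood apart. Gadd45b (2.65), the repressor Bhlhe40 (2.14), Klf10 (1.74), which is also known as TGF-beta inducible early gene, Tsc22d1 (1.19) and the matrix protein gene Tgfbi (1.18) were higher in CH as well. The list shares Sox9, Scx and Fgf18 with the cartilage genes.

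The 3 response genes higher in AD were Has2, Id2 and Snai1, of which Snai1 (-1.02) lost its call without CH replicate 3 (-0.83) or AD replicate 3 (-0.85), after quantile normalization (-0.99) and in the model of all 30 samples (-1.02). Has2, which makes hyaluronan, was at 49.2, 47.1 and 48.6 CPM in CH and 390.2, 459 and 401 CPM in AD, a difference of -3.08 (SE 0.082, adjusted p = 1.06e-24). Both media were above undifferentiated cells (16.6 ± 3.13 CPM) and below osteogenic cells (643 ± 112 CPM). Id2, an inhibitor of basic helix-loop-helix TFs whose value is the sum of 2 rows, was at 4.80, 7.05 and 3.69 CPM in CH and 19.9, 19.4 and 18.6 CPM in AD, a difference of -1.75 (SE 0.20, adjusted p = 9.05e-09). The related Id3 was at 86.6, 93.5 and 80.8 CPM in CH and 88.4, 65.6 and 80.3 CPM in AD. These Id3 samples overlapped and the gene was not called (0.16, adjusted p = 0.225, and -0.03 after quantile normalization), while undifferentiated cells held 714 ± 48.6 CPM.

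Of 8 tested ligands, receptors, SMADs and extracellular regulators of the TGF-beta family, 2 were higher in CH and 4 lower (75.0% called, against 12.0% of all tested genes), with a median of -0.41. Nog, the secreted BMP antagonist noggin, was at 29.1, 29.5 and 26.6 CPM in CH and 1.66, 2.20 and 3.27 CPM in AD, a difference of 3.15 (SE 0.20, adjusted p = 1.71e-14). Gdf6, a BMP-type ligand of joint and skeletal development, stood at 14.8, 20.99 and 16.2 CPM in CH and 1.22, 1.42 and 1.04 CPM in AD, a difference of 3.03 (SE 0.22, adjusted p = 5.56e-13). An antagonist and a ligand of the BMP branch were thus both higher in the chondrogenic samples. Tgfbr3, the co-receptor betaglycan, had 304, 323 and 297 CPM in CH and 1351, 1374 and 1433 CPM in AD, a difference of -2.17 (SE 0.065, adjusted p = 2.78e-23). Osteogenic cells (310.1 ± 47.9 CPM) were near CH, and undifferentiated cells (863 ± 18.7 CPM) lay between the media. Bambi, a pseudoreceptor that dampens signalling, differed by -2.01, the activin subunit gene Inhbb by -1.86 and the ligand gene Gdf15 by -1.19. The Gdf15 call was lost (-0.99) without CH replicate 3.

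Sterol synthesis genes that were called were all higher in CH. Of 16 tested cholesterol and fatty acid synthesis genes, 6 were higher in CH by limma (37.5%, against 6.59% of all tested genes). The count was 5 by limma after median-ratio scaling or quantile normalization, and 7 by edgeR and by DESeq2. None was lower by any of these tools or at an unadjusted limma p under 0.05, and the lowest difference in the list was 0.12, with a median of 0.84. Fdft1, squalene synthase, was at 1026, 1069 and 973 CPM in CH and 192, 175 and 186 CPM in AD, a difference of 2.47 (SE 0.069, adjusted p = 2.99e-24). Insig1, the sterol-regulated brake on SREBP processing, was at 1542, 1663 and 1523 CPM in CH and 330.4, 329.6 and 354 CPM in AD, a difference of 2.22 (SE 0.066, adjusted p = 1.81e-23). For both genes undifferentiated cells lay between the media, with 326 ± 15.5 CPM of Fdft1 and 723 ± 13.5 CPM of Insig1. Msmo1 (2.02), Sqle (1.69) and Sc5d (1.06), which encode enzymes of the same pathway, were also called.

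Actin and contractile genes showed 6 of 21 tested members higher in CH (28.6%, against 6.59% of all tested genes) and none lower by limma, edgeR or DESeq2 (1 lower at an unadjusted p under 0.05), with a median of 0.51. These were Tpm1 (2.50), Vcl (1.52), Cald1 (1.23), which bind or anchor actin filaments, and the mechanoresponsive Ctgf, Cyr61 and Ankrd1 (2.51). Vcl is the sum of 2 rows, which gave 1.94 (called) and 0.52 (not called) when tested apart. Tpm1 had 36.4, 33.8 and 45.9 CPM in CH and 4.97, 7.71 and 5.50 CPM in AD. Of 22 tested genes for collagens, fibrillar matrix and crosslinking, 4 were higher in CH (Col5a2, Fbln2, Col5a1 and Col16a1) and 2 lower (Has2 and Cemip), or 27.3% called against 12.0% of all tested genes, with a median of -0.02. Col5a2, Fbln2 and Col16a1 were under 1 CPM in all 3 AD samples and passed the filter through CH alone, and 1 of 19 tested members was higher in CH when the filter was applied again after any CH replicate was left out, a share near the 6.59% of all tested genes. Fbln2, which encodes the matrix glycoprotein fibulin-2, was at 1.20, 2.64 and 2.21 CPM in CH and had no read in AD, so that it was at least 15.01-fold higher against a floor of 3 reads over the AD group. Cemip, which degrades the hyaluronan that Has2 makes, was at 2099.5, 2183 and 2001 CPM in CH and 6336, 6199.8 and 6737 CPM in AD, a difference of -1.62 (SE 0.064, adjusted p = 4.23e-20). RNA of both Has2 and Cemip was therefore higher in AD, and neither enzyme nor hyaluronan was measured.

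Proteases of the matrix gave 2 of 12 tested members higher in CH (Adamts1 and Mmp15) and 1 lower, against 6.59% and 5.44% of all tested genes, with a median of -0.15. Mmp15, a membrane-bound metalloprotease (1.31), had passed the filter through CH alone and could only be higher there, and 1 of 11 tested members was higher when the filter was applied again after any CH replicate was left out. Adamts1, a secreted metalloprotease that cleaves proteoglycans, was at 4541, 5032 and 4669 CPM in CH and 673, 656 and 722 CPM in AD, a difference of 2.79 (SE 0.065, adjusted p = 3.19e-26). Undifferentiated cells held still more (8573 ± 205 CPM), and AD was the lowest of the 4 groups. Plau, the urokinase plasminogen activator, was at 8.69, 8.37 and 7.25 CPM in CH and 182, 176 and 203 CPM in AD. No tested gene was further towards AD than Plau, with a difference of -4.37 (SE 0.12, adjusted p = 9.9e-25). Undifferentiated cells had 2.25 ± 1.08 CPM and osteogenic cells 44.6 ± 12.2 CPM, so Plau RNA was above the undifferentiated level in all media at 3 h.

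**Figure D3:**
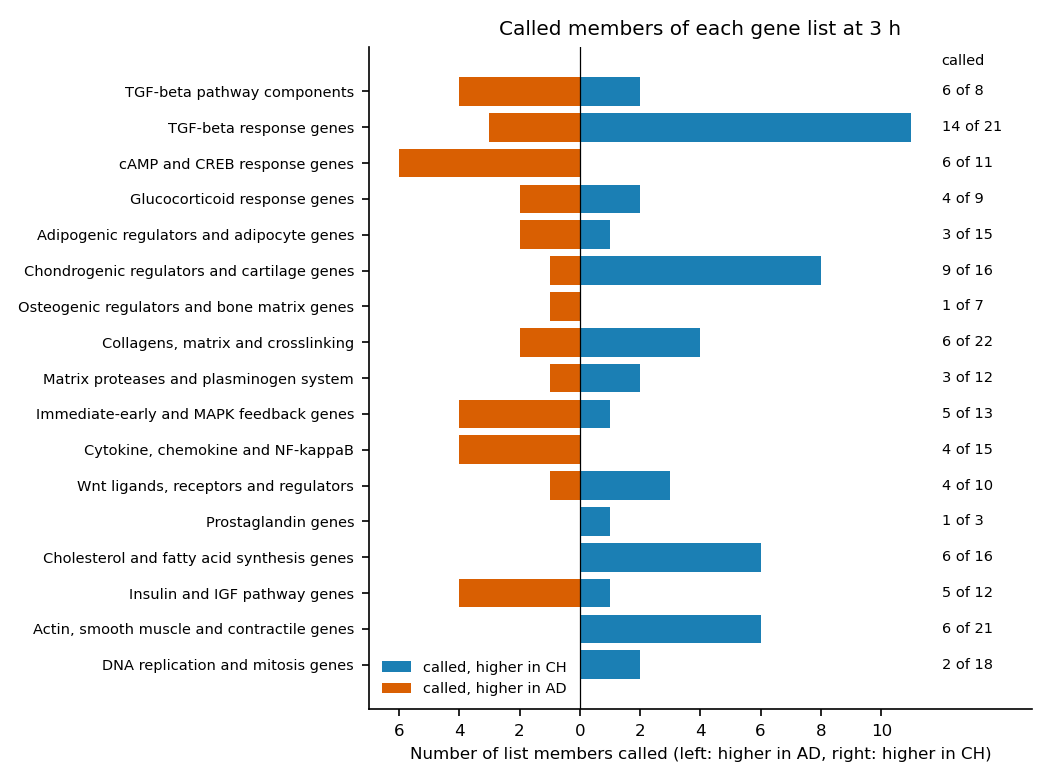
Horizontal bars count the called members of 17 gene lists at 3 h, to the right for genes higher in CH (blue) and to the left for genes higher in AD (orange), and the number called of the number tested stands at the right. On the CH side are 11 TGF-beta response genes, 8 cartilage genes and 6 sterol synthesis genes, while the 6 called cAMP response genes and the 4 called cytokine genes all lie on the AD side.

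Called members of the cytokine, cAMP response and MAP kinase feedback lists lay mainly on the adipogenic side. Of 15 tested cytokine, chemokine and NF-kappaB genes, none was higher in CH by limma, edgeR or DESeq2 (4 at an unadjusted limma p under 0.05). By limma 4 were lower (26.7%, against 5.44% of all tested genes) and by edgeR and by DESeq2 6, with a median of -0.59. Cxcl1, a neutrophil chemoattractant, was at 1159, 1112 and 1048 CPM in CH and 8859.8, 9249.7 and 9363 CPM in AD. The AD samples formed a tight group far above the CH samples, and the difference was -3.05 (SE 0.064, adjusted p = 2.13e-27). Il6 was at 0.300, 1.47 and 0.492 CPM in CH and 20.8, 28.95 and 22.01 CPM in AD, a difference of -3.87 (SE 0.24, adjusted p = 1.12e-14). Undifferentiated cells held more Il6 than either medium (42.3 ± 2.61 CPM), and osteogenic cells (2.02 ± 0.694 CPM) were close to CH. Cxcl2 (-3.20) and Il1a (-1.70) were the other members called by limma, both with CH samples at or under 1.17 CPM. Il1a had passed the filter through AD alone and could only be higher there.

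Of 11 tested cAMP and CREB response genes, 6 were higher in AD by each of limma, edgeR and DESeq2 (54.5%, against 5.44% of all tested genes by limma) and none in CH (1 at an unadjusted limma p under 0.05), with a median of -1.06. Of the 6, Areg, Gem, Pde7b and Cited4 were under 1 CPM in all 3 CH samples, passed the filter through AD alone and could only be higher there. With the filter applied again after any AD replicate was left out, 2 of 7 tested members were higher in AD. The median of those 7 was -0.62 to -0.53, and that of the list with no filter was -0.26. Irs2, the insulin receptor substrate that is also a CREB target, was at 32.5, 31.7 and 32.5 CPM in CH and 155, 164 and 174 CPM in AD, a difference of -2.31 (SE 0.093, adjusted p = 6.92e-20). The AD samples were near undifferentiated cells (141 ± 23.97 CPM), and CH was near osteogenic cells (28.9 ± 3.58 CPM). The other 5 were low in both media. Areg, an EGF receptor ligand, was at 0, 0.440 and 0 CPM in CH and 2.98, 2.52 and 4.76 CPM in AD, a difference of -1.94 (SE 0.29, adjusted p = 2.1e-06). Pde10a (-2.07) and Pde7b (-1.16), which break down cyclic nucleotides, Gem (-1.36) and Cited4 (-1.06) completed the called members. Pde4b was at 1.35, 1.61 and 3.07 CPM in CH and 3.65, 3.93 and 3.72 CPM in AD and was not called (-0.70).

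Immediate-early and MAP kinase feedback genes had 4 of 13 tested members higher in AD (Dusp4, Dusp6, Spry2 and Jun) and 1 higher in CH (Klf10), or 38.5% called against 12.0% of all tested genes, with a median of -0.39. Dusp4, a phosphatase that switches off ERK, was at 15.7, 17.5 and 14.8 CPM in CH and 251, 248 and 273 CPM in AD, a difference of -3.93 (SE 0.099, adjusted p = 2.48e-25). CH lay below undifferentiated cells (36.99 ± 0.794 CPM), while osteogenic cells (379 ± 77.04 CPM) lay above AD. Dusp6 (-2.12) and Spry2 (-1.80), which restrain the same kinase cascade, showed osteogenic means above AD as well (139.6 ± 60.3 and 20.2 ± 8.79 CPM).

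Hormone-linked genes were mixed. Of 9 tested glucocorticoid response genes, 2 were higher in CH (Ctgf and Tgm2) and 2 lower (Mt2A and Pik3r1), or 44.4% called against 12.0% of all tested genes, with a median of -0.16. Mt2A, a metal-binding metallothionein whose reads could be shared with related family members, was at 324, 370.4 and 299 CPM in CH and 2011, 1730.1 and 2089 CPM in AD, a difference of -2.55 (SE 0.076, adjusted p = 2.59e-23). Tsc22d3 (Gilz), a direct glucocorticoid target, was at 145, 138 and 111 CPM in CH and 181, 156 and 163 CPM in AD. It was not called (-0.35), and both media were above undifferentiated cells (27.8 ± 2.98 CPM). Of 12 tested insulin and IGF pathway genes, 1 was higher in CH (Igfbp5, 1.99) and 4 were lower (Irs2, Sesn2, Pik3r1 and Socs2), or 41.7% called against 12.0% of all tested genes, with a median of 0.04. Sesn2, a stress-induced regulator of mTORC1, was at 328, 336 and 286 CPM in CH and 938, 996 and 927 CPM in AD. Pik3r1 is the sum of 2 rows, and its difference of -1.05 was 0.10 for 1 row and -1.06 for the other when they were tested apart. Without AD replicate 1 it lost its call (-0.98). The Igfbp5 call was lost in the model of all 30 samples at the same difference (1.99), and that of Socs2 (-1.01) was lost without CH replicate 1 or AD replicate 3.

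A search of RefSeq promoters (assembly GRCr8, 250 bases before to 50 after the start of the gene) is shown for the called members of the cAMP, TGF-beta and glucocorticoid lists, because these pathways act through response elements with known letters. Searched on both strands were TGACGTCA (the full cAMP response element), the palindromic glucocorticoid receptor element, GTCTAGAC (a SMAD element) and TGACTCA (an AP-1 element), none of which overlaps another in the windows printed. Of 14 called members with a promoter in the table, 2 held 1 of these, and they are printed with the matched letters in capitals. The Mt2A window is chr19:10838659-10838958 and the Areg window chr14:17265592-17265891, both on the minus strand and printed 5′ to 3′ along the gene.
Mt2A: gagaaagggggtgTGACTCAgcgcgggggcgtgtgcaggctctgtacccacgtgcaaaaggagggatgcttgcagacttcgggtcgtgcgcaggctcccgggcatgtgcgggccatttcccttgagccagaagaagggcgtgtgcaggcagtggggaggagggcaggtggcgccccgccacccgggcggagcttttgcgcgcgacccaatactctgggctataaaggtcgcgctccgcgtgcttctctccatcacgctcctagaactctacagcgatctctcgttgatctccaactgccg
Areg: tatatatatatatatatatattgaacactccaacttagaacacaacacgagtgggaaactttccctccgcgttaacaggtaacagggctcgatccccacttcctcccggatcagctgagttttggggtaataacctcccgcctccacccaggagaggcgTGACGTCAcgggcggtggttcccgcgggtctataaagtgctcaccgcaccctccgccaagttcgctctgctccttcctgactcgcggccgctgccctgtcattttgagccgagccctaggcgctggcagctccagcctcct
Over all 27457 promoters of the table, 1.91% held TGACGTCA and 4.53% held TGACTCA. A share over the tested genes was void, since 2562 of the 3307 had a promoter in the table, too few for such a share. The letters in these windows are a description and not a binding site.

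Of 15 tested adipogenic regulators and adipocyte genes, 3 (20.0%, against 12.0% of all tested genes) were called. Of these, 1 was higher in CH (Prdm16, a regulator of brown fat, 1.52) and 2 were lower (Irs2 and Lpl), with a median of 0.01. Prdm16 had passed the filter through CH alone and could only be higher there, and it was not tested when the filter was applied again after any CH replicate was left out. Lpl, lipoprotein lipase, was at 243, 259.8 and 238 CPM in CH and 559, 571 and 607 CPM in AD, a difference of -1.23 (SE 0.069, adjusted p = 7.29e-16). Undifferentiated cells held 720.3 ± 56.7 CPM, above both. Pparg was at 0.774, 0.472 and 0.297 CPM in AD and had no read in CH, and at these levels, which carry the same limit as those of Col2a1 and Acan, it did not enter the test. Cebpa was at 0.599, 1.17 and 0.123 CPM in CH and 1.88, 0.472 and 1.78 CPM in AD. These samples overlapped, and Cebpa was not called (-0.53, adjusted p = 0.199). Klf4, an early adipogenic Krüppel-like factor, was at 410.4, 424 and 404 CPM in CH and 768, 757 and 771 CPM in AD, which did not overlap but fell short of the fold threshold (-0.89, SE 0.065). Klf5 went the other way at 0.44. Cebpb, Cebpd, Fabp4, Fkbp5, Smad7 and Id1 were not analysed here.

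Of 7 tested bone genes, 1 (14.3%, near the 12.0% of all tested genes) was called. That member, the homeobox gene Dlx3, was at 29.97, 29.9 and 31.1 CPM in CH and 232, 229.6 and 234 CPM in AD, a difference of -2.89 (SE 0.088, adjusted p = 3.74e-23). The CH samples were at the level of undifferentiated cells (29.7 ± 1.90 CPM), and osteogenic cells (101 ± 9.20 CPM) lay between the media. Wnt pathway genes had 3 of 10 tested members higher in CH (Axin2 1.72, Wnt2b 1.44 and Lef1 1.32) and Fzd4 lower (-1.21), or 40.0% called against 12.0% of all tested genes, with a median of 0.37. Wnt2b and Lef1 had passed the filter through CH alone, and 1 of 7 tested members was higher in CH when it was applied again after any CH replicate was left out. The median of those 7 was 0.21 to 0.23. Of 18 tested replication and mitosis genes, 2 were higher in CH (11.1%, against 6.59% of all tested genes), with a median of 0.37. Cdc20, an activator of the anaphase-promoting complex, was at 317, 350.1 and 290.1 CPM in CH and 124, 111 and 123 CPM in AD, and Hmgb2 (1.21) lost its call (0.96) without AD replicate 1. Of 3 tested prostaglandin genes, 1 was higher in CH (33.3%, against 6.59% of all tested genes), the prostacyclin receptor gene Ptgir (1.64).

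Among 105 tested TFs of the 142 the study listed, 18 were higher in CH and 10 lower (26.7% called, against 12.0% of all tested genes), with a median of 0.28. The study chose that list on these samples, so its count is not independent evidence. Of the 18, 6 (Gbx2, Sox11, Hoxd9, Hoxd10, Lef1 and Prdm16) had passed the filter through CH alone, and of the 10, 5 (Nr1d1, Hey2, L3mbtl1, Zfp541 and Foxc1) through AD alone, so that each could differ in 1 direction only. With the filter applied again, 12 or 13 were higher after a CH replicate was left out and 5 lower after an AD replicate was left out. Foxf1, a forkhead factor of mesenchyme, was at 0.899, 1.76 and 1.60 CPM in CH and 13.3, 6.29 and 10.1 CPM in AD, a difference of -2.14 (SE 0.26, adjusted p = 3.92e-08). The 28 called TFs included Sox9, Sox11, Scx, Bhlhe40, Runx3 and Klf10 on the CH side and Dlx3, Id2, Jun and Foxc1 on the AD side.

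Outside the lists, the genes with the largest differences were a varied group. Dlk2, a membrane relative of the preadipocyte factor DLK1, was at 53.2, 61.2 and 47.8 CPM in CH and 0.553, 0.944 and 0.892 CPM in AD, a difference of 4.94. It had passed the filter through CH alone, as Mip had, and Stab1 through AD alone, so their direction was fixed by it. Gldn, gliomedin of the nodes of Ranvier, was at 235, 241 and 227 CPM in CH and 6.30, 8.81 and 6.25 CPM in AD, a difference of 4.87 (SE 0.12, adjusted p = 1.7e-25). Osteogenic cells (294 ± 5.85 CPM) were above CH for Gldn. Mip, the lens water channel aquaporin 0, was at 11.5, 10.9 and 12.5 CPM in CH and had no read in any AD, CON or OS sample. It was at least 86.3-fold higher in CH against 3 reads over the AD group. Kprp (3.88), a keratinocyte protein gene, was highest in undifferentiated cells (783 ± 24.2 CPM), and Brinp2 differed by 4.65. Towards AD, the Notch ligand gene Dll1 was at 2.10, 1.61 and 1.48 CPM in CH and 26.4, 29.9 and 23.5 CPM in AD, a difference of -3.34 (SE 0.20, adjusted p = 4.23e-15). The stress gene Gadd45a was at 0.899, 1.32 and 1.48 CPM in CH and 22.7, 23.6 and 26.8 CPM in AD, a difference of -3.51 (SE 0.21, adjusted p = 3.64e-15). Its relative Gadd45b was thus higher in CH and Gadd45a in AD. Stab1, a scavenger receptor gene, was at 0.450, 0.294 and 0.246 CPM in CH and 11.4, 11.96 and 11.7 CPM in AD, while undifferentiated cells had no read.

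Levels in undifferentiated cells were then set beside both media. The CON mean lay between the CH and AD means for 122 of the 218 genes higher in CH, below both for 65 and above both for 31. For the 180 genes higher in AD it lay between them for 77, below both for 91 and above both for 12. Over all 3307 tested genes it was between for 673, below for 1867 and above for 767, and genes called for a wide gap leave more room between the means. On the log2 scale CON was nearer to AD for 152 of the 218 and nearer to CH for 143 of the 180. Osteogenic cells at 3 h were nearer to AD for 140 of the 218 and nearer to CH for 129 of the 180. Over all tested genes, CON was nearer to CH for 48.1% and osteogenic cells for 51.7%. A mean below both media is by arithmetic nearer to the lower one, as CON was for 65 and 91 of these genes and osteogenic cells for 40 and 58. Part of each count was thus fixed, and the shares over all tested genes do not allow for it. These counts describe levels and were not tested.

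The same media at 12 and 72 h were separate samples. There, 559 of 3196 tested genes (17.5%) were called at 12 h and 1008 of 3330 (30.3%) at 72 h. The 72 h split of 679 higher and 329 lower in CH depended on the scaling and was 459 and 601 after the samples were scaled to equal totals of the listed genes. It also depended on single samples, as 414 were higher without CH 72 h replicate 1 with the filter applied again. At 12 h, 296 were higher in CH, and 192 without CH 12 h replicate 2 in the same way. Of the 218 genes higher in CH at 3 h, 188 were tested at 12 h and 90 of these (47.9%) were again higher in CH, against 9.26% of all tested genes, and they made up 30.4% of the 296 genes higher in CH at 12 h. At 72 h, 96 of 177 (54.2%) were again higher, against 20.4%, or 14.1% of the 679 genes higher then. Of the 180 genes higher in AD at 3 h, 36 of the 108 tested at 12 h (33.3%) were again lower in CH, against 8.23%, or 13.7% of the 263 lower then, and at 72 h 27 of 98 (27.6%), against 9.88%, or 8.21% of the 329 lower then. The last count was 57 with edgeR and 43 after rescaling. With the filter applied again after a replicate was left out, the 90 became 58, 54 and 57 without CH 12 h replicate 1, 2 and 3, the 96 became 62 without CH 72 h replicate 1, and the 36 became 22 without AD 12 h replicate 3. Genes detected in 1 group alone at the later time entered that test with their direction fixed, so the shares above are not free of the filter. The number of such genes and a base share without them were not worked out. The call in the same direction held at all 3 times for 80 of the 3307 genes tested at 3 h, 62 of them higher in CH. This count was made with the main scaling only, and its 72 h calls depended on the scaling. It includes genes such as Angptl7 that had passed the filter at 3 h through 1 group alone.

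Sox9, Angptl7 and Scx were among the genes higher in CH throughout. Sox9 differed by 6.60 (SE 0.14, adjusted p = 4.05e-09) at 12 h and by 6.22 (SE 0.14, adjusted p = 1.23e-07) at 72 h, both above its 3 h value. Angptl7 differed by 7.51 and 8.97, and Scx by 3.85 and 4.35. On the AD side, Cxcl1 held nearly the same difference at 12 h (-2.997) and 72 h (-2.98), whereas that of Tgfbr3 widened to -4.15 and -6.18 and that of Lpl to -2.93 and -6.86. The sterol genes Fdft1 (0.46), Insig1 (0.44) and Msmo1 (0.55) were not called at 12 h, but all 3 were again higher in CH at 72 h (1.31, 1.52 and 1.32), calls that were lost after quantile normalization (0.82, 0.998 and 0.83) and, for Fdft1 (0.82) and Msmo1 (0.82), after rescaling too.

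A smaller number of genes were called in opposite directions. Of the genes higher in CH at 3 h, 4 of 188 tested were lower at 12 h (2.13%, against 8.23% of all tested genes) and 6 of 177 at 72 h (3.39%, against 9.88%). Of those higher in AD, 7 of 108 were higher in CH at 12 h (6.48%, against 9.26%) and 11 of 98 at 72 h (11.2%, against 20.4%). Plau was at 27.6 to 34.7 CPM in CH and 7.40 to 9.07 CPM in AD at 12 h, and at 44.9 to 51.5 and 3.48 to 22.2 CPM at 72 h. Its difference went from -4.37 to 1.74 (SE 0.19, adjusted p = 9.74e-05) and then 2.002 (SE 0.54, adjusted p = 0.0153). Dusp4 was at 31.1 to 42.5 CPM in CH and 3.66 to 6.48 CPM in AD at 12 h, with a difference of 2.67 (SE 0.23, adjusted p = 2.79e-05). The same order held at 72 h (3.27), so both genes were higher in AD at 3 h alone of the 3 times. Has2 turned at 12 h (2.22) and was not called at 72 h (0.75). Efnb2, an ephrin ligand gene chosen after its values were seen, went from 397, 411 and 385 CPM in CH and 1608, 1624 and 1653 CPM in AD at 3 h (-2.03) to differences of 2.08 and 4.03.

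**Figure D4:**
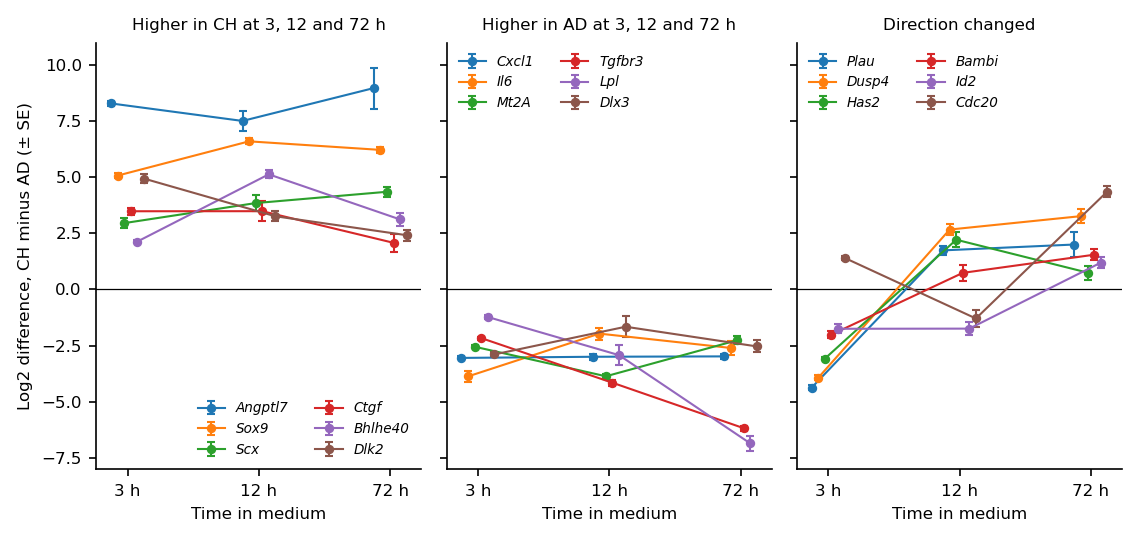
The y axis gives the log2 difference, CH minus AD (points, with bars for the SE of the limma model, n = 3 samples a group), and the x axis the time in medium (3, 12 and 72 h, evenly spaced and not to scale), 1 line a gene. The left panel shows 6 genes called higher in CH at each time, the middle panel 6 called higher in AD at each time, and the right panel 6 whose direction changed, where Plau and Dusp4 cross zero between 3 and 12 h.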

How the data were processed

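RNA of 6 samples (CH and AD at 3 h) was compared, with 12 h, 72 h, CON and OS samples beside them. Per the labels the reads went through Trimmomatic, HISAT2 and StringTie, and versions and build are not given in the sources used here. The labels name ribosomal RNA removal, the study's methods an mRNA kit. The authors deposited 1 value per gene under the name FPKM, but the deposited values are CPM, since 100.0% were whole multiples of 1 read (tolerance 0.02). Such steps gave the reads and totals, of which the listed genes held 60.7 to 66.3%. Replicates differed by more than counting noise.

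Each sample had 10803 rows under 9999 names, and 729 names on several rows were summed. Against RefSeq, 8356 names matched a symbol and 454 a synonym. The test was limma 3.58.1 (R 4.3.3, eBayes with a trend), run on genes that reached 1 CPM in 3 or more of the 6 samples, on log2(CPM + 1), with Benjamini-Hochberg adjustment over all tested genes, and this understates the change of low genes. SEs are those of the model. A contrast over 12 samples tested the change from 3 to 72 h. The method was tested on simulated data. Alternatives were a pseudocount of 0.1, no filter, other scalings, a model of all 30 samples, a replicate block, edgeR 4.0.16 (quasi-likelihood) and DESeq2 1.42.0 on the recovered reads, rows apart, and each replicate left out. Named genes were the 10 largest non-overlapping differences in each direction, up to 4 called members of each list in each direction, and key genes called or not, of which the text gives a part and some are not reported here. The comparison, the genes and the lists were chosen with earlier results of these data known.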

Additional observations from a re-analysis of the deposited data

Results flagged for a closer look

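For 4 of the named genes the difference between the media was called in opposite directions at 3 and 72 h, and the limma contrast between the times passed. They were picked for these opposite calls, so the contrast restates that choice and is given as the size of the change. Plau, the urokinase gene, changed by 6.37 (SE 0.58, adjusted p = 1.47e-06), and Dusp4, the ERK phosphatase gene, by 7.19 (SE 0.34, adjusted p = 1.59e-09) on the log2 scale. Bambi, the TGF-beta pseudoreceptor gene, changed by 3.56 (SE 0.33, adjusted p = 1.64e-06). Id2 changed by 2.94 (SE 0.33, adjusted p = 1.06e-05), but its call at 72 h was lost with edgeR (0.93), DESeq2 (0.95), quantile normalization (0.85) and rescaling (0.71). Over all genes tested in that contrast, 1528 passed an adjusted p under 0.05.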

How the results depend on the processing

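At 3 h the 398 calls numbered 397 to 517 over the alternatives other than leaving out a replicate, with 203 to 277 higher and 180 to 265 lower in CH. DESeq2 and edgeR gave 474 and 512, of which 387 and 390 were shared. Replicate numbers did not pair the samples (correlations of deviations of -0.01, -0.10 and -0.10 for equal numbers), and with a replicate block the count was again 398. The highest correlations were 0.11 (CH replicate 2 with AD replicate 3) and 0.09 (CH replicate 3 with AD replicate 2). A pairing under other numbers was not tested.

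Leaving out 1 replicate with the tested genes kept gave 406 to 413 calls at 3 h (223 to 230 higher, 180 to 188 lower), 500 to 659 at 12 h (256 to 354 and 244 to 305) and 885 to 1045 at 72 h (612 to 726 and 273 to 352). Genes higher in CH at 3 h that were so again numbered 84 to 95 at 12 h and 91 to 100 at 72 h, and genes lower 28 to 37 and 22 to 30. The first version of this check applied the filter again to the 5 samples left, and it was replaced after its counts had been seen. It gave 337 to 352 calls at 3 h, with 155 to 230 higher and 117 to 182 lower, 435 to 593 at 12 h (192 to 352 and 199 to 255) and 687 to 948 at 72 h (414 to 723 and 225 to 316), because genes detected only in the group left with 2 samples were no longer tested. The carried-over counts were then 54 to 95 (58, 54 and 57 without CH 12 h replicate 1, 2 and 3) and 62 to 100 for genes higher, and 22 to 37 and 22 to 29 for genes lower.

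At 72 h the 329 genes lower in CH became 601 after rescaling and 500 with edgeR, and the median difference of all genes moved from 0.18 to -0.25 and -0.05. Of the genes lower at 3 h, 43 (rescaled), 57 (edgeR) and 50 (DESeq2) were lower again at 72 h, against 27. Id3 reversed with quantile normalization (-0.0264) and 1 of the 2 Pik3r1 rows when tested apart (0.0994, the other row -1.06 and still called). The other named genes kept their direction in each setting where they were tested, and some were not tested with rows apart or with the filter applied again. The cause of these changes was not tested. Depth limits genes near 3 reads.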
